A study of Mus musculus with 8 samples.

Results

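Inhibitory neurons of the mouse brain were followed through 9 genes that are commonly used to mark them, among 55401 genes in the table. The genes were taken by name: Gad1, Gad2, Slc32a1, Reln, Sst, Vip, Npy, Cck and Lhx6. All 9 were found on GRCm38, all 9 passed the filter on low counts in each comparison. The rule that names them uses no measured value, but the genes were chosen with earlier results of these data known. RNA immunoprecipitation (RIP) pulls a protein out of a lysate with an antibody and sequences the RNA that comes with it. There were 3 CaMKIIβ RIP libraries, 3 IgG RIP libraries, for which control IgG took the place of the antibody, and 2 Input libraries of the RNA before precipitation. CaMKIIβ is one of the subunits of a calcium-dependent synaptic kinase. All came from C57BL/6 mice and tissue labelled hippocampus, with no genetic change, treatment, age or sex given in the labels used here. The labels do not say whether libraries came from separate animals, so the p-values measure the spread between these libraries, which may be technical.

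Inhibitory neurons make GABA from glutamate with the glutamic acid decarboxylases that Gad1 and Gad2 encode, and load it into synaptic vesicles with the transporter that Slc32a1 encodes. In the hippocampus and cortex these cells fall into classes that also release a neuropeptide, such as somatostatin (Sst), vasoactive intestinal peptide (Vip), neuropeptide Y (Npy) or cholecystokinin (Cck). Reelin, the product of Reln, is a large secreted glycoprotein of Cajal-Retzius cells, of a part of the interneurons and of cerebellar granule cells. Lhx6 encodes a LIM homeodomain factor of interneurons that arise in the medial ganglionic eminence.

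The libraries held between 17273957 and 28138289 counts. CaMKIIβ RIP replicate 2 had the fewest detected genes, 19247, against 24865 to 31152 in the other 7 libraries. Transcripts of the cerebellum were present in all libraries, although the tissue is labelled hippocampus. In Input the cerebellar granule cell gene Gabra6 was at 794 and 774 TPM (a transcript level per exon length, relative to the sum over all genes) and the Purkinje cell gene Car8 at 976 and 904 TPM, against 74.7 and 64.5 TPM for Prox1, a factor of dentate granule cells. Purkinje cells and cerebellar interneurons also use Gad1 and Slc32a1, so the cells behind the counts of these genes cannot be told apart here. In bulk RNA, fewer cells of a type and less RNA per cell cannot be told apart either.

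Per exon length, Gad1 was the highest of the 9 genes in Input and Reln the highest in both immunoprecipitates. Reln averaged 308 ± 46.5 TPM in CaMKIIβ RIP, 318 ± 8.96 TPM in IgG RIP and 117 ± 7.06 TPM in Input (SD, n = 3, 3 and 2, as for all group means that follow). Gad1 averaged 208 ± 18.8 TPM in CaMKIIβ RIP, 212 ± 5.32 TPM in IgG RIP and 198 ± 2.02 TPM in Input. In CaMKIIβ RIP the order of the means was Reln, Gad1, Cck, Slc32a1, Gad2, Sst, Npy, Lhx6 and Vip. The libraries of neighbours in that order overlapped for Gad1 and Cck, for Gad2 and Sst, and for Lhx6 and Vip. In IgG RIP the order was Reln, Cck, Gad1, Slc32a1, Gad2, Sst, Npy, Vip and Lhx6, and the libraries of Cck and Gad1, of Gad2 and Sst, and of Vip and Lhx6 overlapped. Input gave the order Gad1, Cck, Gad2, Reln, Sst, Slc32a1, Npy, Vip and Lhx6, with an overlap between Sst and Slc32a1. Vip and Lhx6 were far below the others in every group, at 2.69 ± 1.83 and 3.73 ± 0.843 TPM in CaMKIIβ RIP, 3.78 ± 1.29 and 3.15 ± 0.674 TPM in IgG RIP, and 4.70 ± 0.891 and 2.81 ± 0.155 TPM in Input. The highest mean was 115 times the lowest in CaMKIIβ RIP (189 times without replicate 2, which held the most Vip), 101 times in IgG RIP and 70.4 times in Input.

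**Figure D1:**
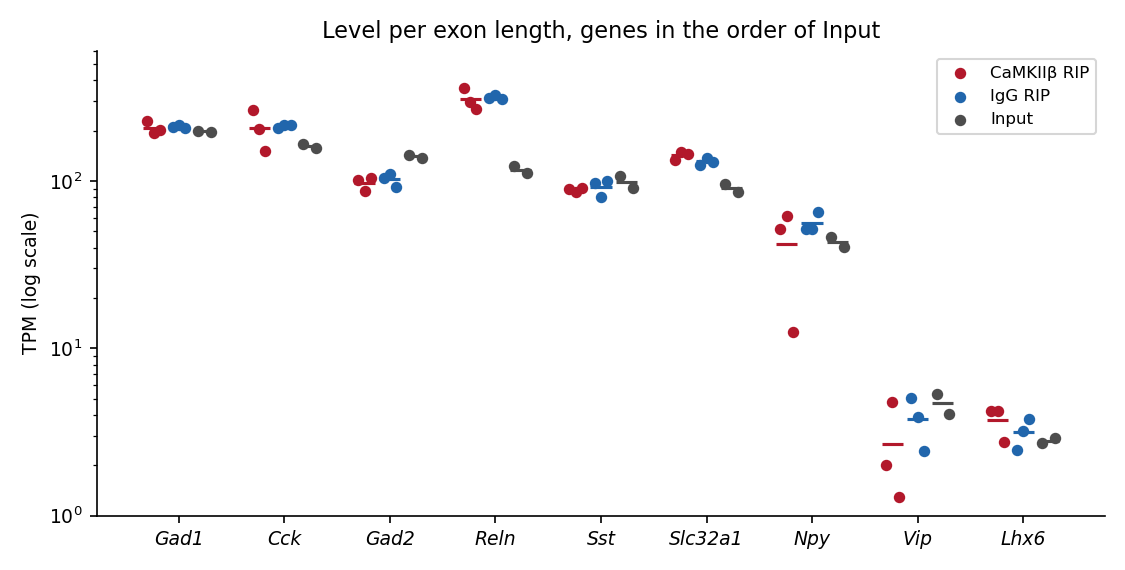
Level of each gene in TPM on a log axis, with a point per library and a bar at the group mean, for CaMKIIβ RIP, IgG RIP and Input, in the order of the Input means. Reln stands at 268 to 359 TPM in CaMKIIβ RIP and at 310 to 328 TPM in IgG RIP, above its 112 and 122 TPM in Input, and Vip and Lhx6 lie below 6 TPM in every library.

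Setting CaMKIIβ RIP against IgG RIP shows which RNAs came with the kinase antibody beyond those that came with control IgG. For the inhibitory neuron genes no difference was found: 0 of 9 passed an adjusted p under 0.05 with edgeR's quasi-likelihood test (Benjamini-Hochberg over all 20566 genes tested), where 0% of all genes passed. At an unadjusted p under 0.05 the count was 0 of 9, against 3.51% of all genes, and DESeq2 and limma-voom also called 0 of 9. The libraries of the 2 antibodies overlapped for all 9 genes, while they did not overlap for 12% of all genes, 4.86% with CaMKIIβ RIP higher and 7.12% with it lower. The 9 log2 fold changes had a median of 0.02, beside -0.02 over all genes tested.

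The precision of these values varied with the gene. Gad1 had a log2 fold change of 0.03 ± 0.08 (SE) with a 95% interval from -0.15 to 0.22, and Reln one of 0.02 ± 0.10 from -0.21 to 0.24. Gad2, at -0.02 ± 0.10, had an interval from -0.23 to 0.20. Slc32a1 was at 0.19 ± 0.12, from -0.09 to 0.47, Sst at 0.00 ± 0.19, from -0.43 to 0.44, and Cck at 0.02 ± 0.18, from -0.39 to 0.42. For these 6 genes a 2-fold difference in scaled level lies outside the interval. For the 3 genes with the fewest counts the interval reached past a 2-fold difference: from -1.79 to 1.04 for Vip, from -1.49 to 0.79 for Npy and from -0.60 to 1.21 for Lhx6. The 9 adjusted p-values lay between 0.982 and 0.999. Levels are scaled to library size, so a difference in the total RNA that each antibody recovered is not seen in these values.

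**Figure D2:**
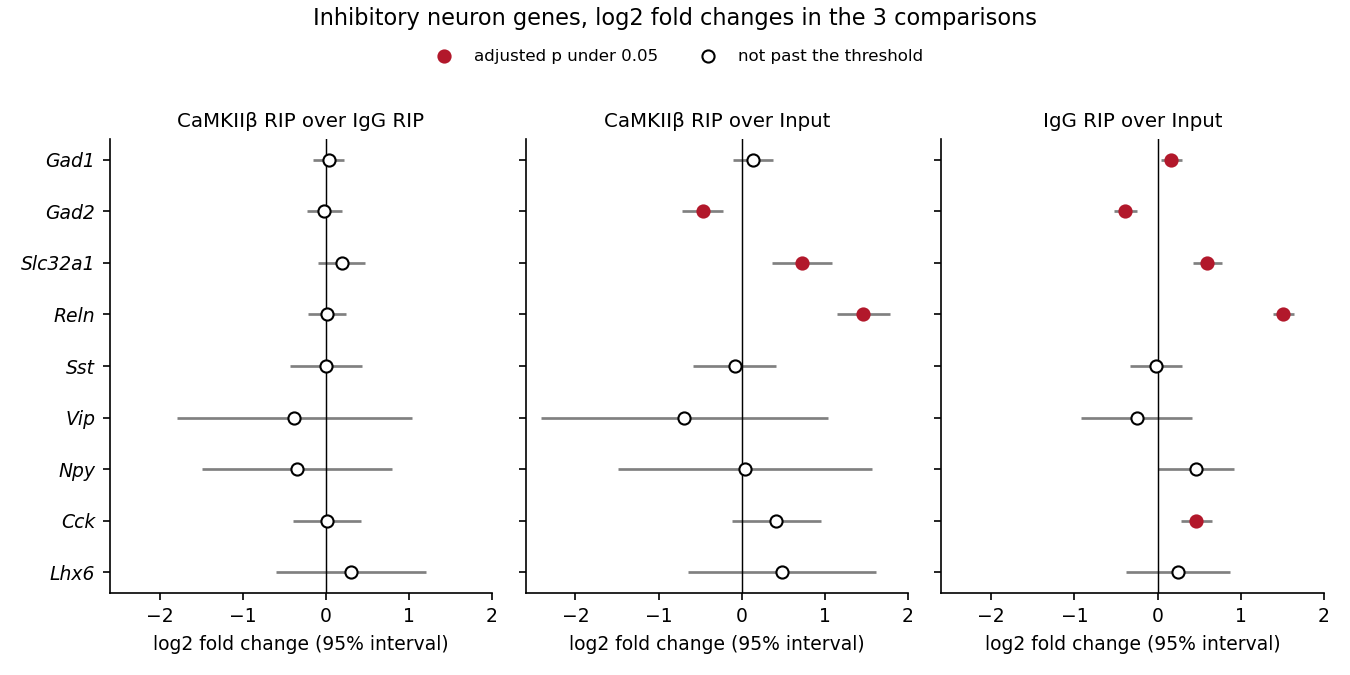
Log2 fold change of each gene with its 95% interval, for CaMKIIβ RIP over IgG RIP, CaMKIIβ RIP over Input and IgG RIP over Input. Filled points passed an adjusted p under 0.05: none in the first panel, Gad2, Slc32a1 and Reln in the second, and these with Gad1 and Cck in the third.

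Each immunoprecipitate was next set against Input, which asks which RNAs were over- or under-represented in the precipitate. In CaMKIIβ RIP, Reln and Slc32a1 rose and Gad2 fell, so that 3 of 9 genes passed, where 8.45% of all 22095 genes did (5.06% higher, 3.4% lower). With IgG, Reln, Slc32a1, Cck and Gad1 rose and Gad2 fell, 5 of 9, where 38.7% of all 22342 genes passed (20.1% higher, 18.7% lower). At an unadjusted p under 0.05 the counts were 3 of 9 in CaMKIIβ RIP, beside 22.6% of all genes, and 6 of 9 in IgG RIP, beside 45.5%. These comparisons share both Input libraries, so they are not independent of each other, and each gene's values are given side by side. The libraries did not overlap for 4 of 9 genes in CaMKIIβ RIP against Input, 3 higher and 1 lower, beside 47.1% of all genes (20.6% higher, 26.5% lower). In IgG RIP against Input they did not overlap for 6 of 9, 5 higher and 1 lower, beside 60.4% of all genes (28.9% higher, 31.5% lower). The median log2 fold change of the 9 was 0.14 in CaMKIIβ RIP and 0.24 in IgG RIP, beside -0.12 and -0.02 over all genes tested.

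The CaMKIIβ RIP calls rest on few libraries. Without CaMKIIβ RIP replicate 1 the test passed 0 of 9 genes and 0 genes in all, with 1.42, 0.84 and -0.42 for Reln, Slc32a1 and Gad2 on the log2 scale. Without CaMKIIβ RIP replicate 2 the same 3 genes passed, and without either Input library Reln alone did.

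Of the enzymes of GABA synthesis, Gad2 was lower in both immunoprecipitates than in Input, and Gad1 was not. Gad2 (ENSMUSG00000026787.3, GRCm38 chromosome 2, 22622205 to 22693874, plus strand) encodes GAD65, the isoform found at nerve terminals. Its scaled level, as a count relative to the TMM-scaled library size (CPM), was 126, 125 and 135 in CaMKIIβ RIP, 132, 136 and 123 in IgG RIP, and 174 and 171 in Input. Every RIP library of either antibody lay below both Input libraries. In CaMKIIβ RIP against Input the log2 fold change was -0.47 ± 0.11 (SE, 95% interval -0.71 to -0.22, edgeR adjusted p = 0.0399), and in IgG RIP against Input it was -0.39 ± 0.07 (-0.53 to -0.24, adjusted p = 1.82e-04). The CaMKIIβ RIP call is near the threshold and was lost with RLE scaling (adjusted p = 0.0504), with upper quartile scaling (0.052) and without a count filter (0.0899), at values from -0.43 to -0.40.

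Gad1 (ENSMUSG00000070880.10, chromosome 2, 70553072 to 70602014, plus strand) encodes GAD67, which makes most of the GABA of the cell. It stood at 374, 363 and 340.2 CPM in CaMKIIβ RIP, 345, 353 and 358 CPM in IgG RIP, and 313 and 318 CPM in Input. All 6 RIP libraries lay above both Input libraries, by a small margin. The log2 fold change was 0.14 ± 0.10 in CaMKIIβ RIP (-0.10 to 0.38, edgeR adjusted p = 0.525) and 0.17 ± 0.06 in IgG RIP (0.04 to 0.29, adjusted p = 0.031). With library size alone as the scaling, which moved the median of all genes by -0.17 and -0.23 in these comparisons, Gad1 was at -0.03 in CaMKIIβ RIP and -0.06 in IgG RIP and passed in neither. The IgG RIP call was also lost without IgG RIP replicate 1 (0.18, edgeR adjusted p = 0.068), Input replicate 1 (0.15, 0.221) or Input replicate 2 (0.18, 0.161).

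Slc32a1 (ENSMUSG00000037771.11, chromosome 2, 158610767 to 158615748, plus strand) encodes VGAT, the vesicular transporter that fills synaptic vesicles with GABA and glycine. Its level was 79.2, 102 and 89.97 CPM in CaMKIIβ RIP, 74.8, 81.7 and 82.6 CPM in IgG RIP, and 55.3 and 50.7 CPM in Input. No RIP library reached down to the Input libraries. Slc32a1 rose 1.65-fold in CaMKIIβ RIP (log2 fold change 0.73 ± 0.16, 95% interval 0.36 to 1.09, edgeR adjusted p = 0.0336) and 1.52-fold in IgG RIP (0.60 ± 0.08, 0.42 to 0.78, adjusted p = 2.07e-05). The CaMKIIβ RIP call was lost with library size scaling (0.56, adjusted p = 0.0801) and without CaMKIIβ RIP replicate 3 (0.74, adjusted p = 0.0662). The gene shares 697 exon bases with an antisense gene that had 5 counts over all libraries, and strand use in the counting is not given in the sources used here.

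The ratio between these genes within a library does not depend on how libraries are scaled. Gad1 had 2.96, 2.91 and 2.52 times the counts of Gad2 in CaMKIIβ RIP, 2.61, 2.58 and 2.91 times in IgG RIP, and 1.80 and 1.87 times in Input. Both antibodies thus lay above Input, with a difference in the mean log2 ratio of 0.60 in CaMKIIβ RIP and 0.55 in IgG RIP. Slc32a1 had 0.627, 0.821 and 0.667 of the counts of Gad2 in CaMKIIβ RIP, 0.566, 0.599 and 0.671 in IgG RIP, and 0.319 and 0.297 in Input, differences of 1.19 and 0.99. Against Gad1, Slc32a1 had 0.212, 0.282 and 0.265 of the counts in CaMKIIβ RIP, 0.217, 0.232 and 0.231 in IgG RIP, and 0.177 and 0.159 in Input. For all 3 ratios the libraries of each antibody did not overlap with Input, and those of the antibodies overlapped with each other. The ratios were chosen after the values were seen, and with 3 libraries against 2 or 3 a two-sided exact permutation test cannot go below p = 0.1. The exact permutation test gave p = 0.1 in 5 of the 6 comparisons with Input and p = 0.2 for Slc32a1 over Gad1 in CaMKIIβ RIP, with adjusted values of 0.18 and 0.3 over the 9 tests, and p = 0.3 to 0.8 between the antibodies.

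**Figure D3:**
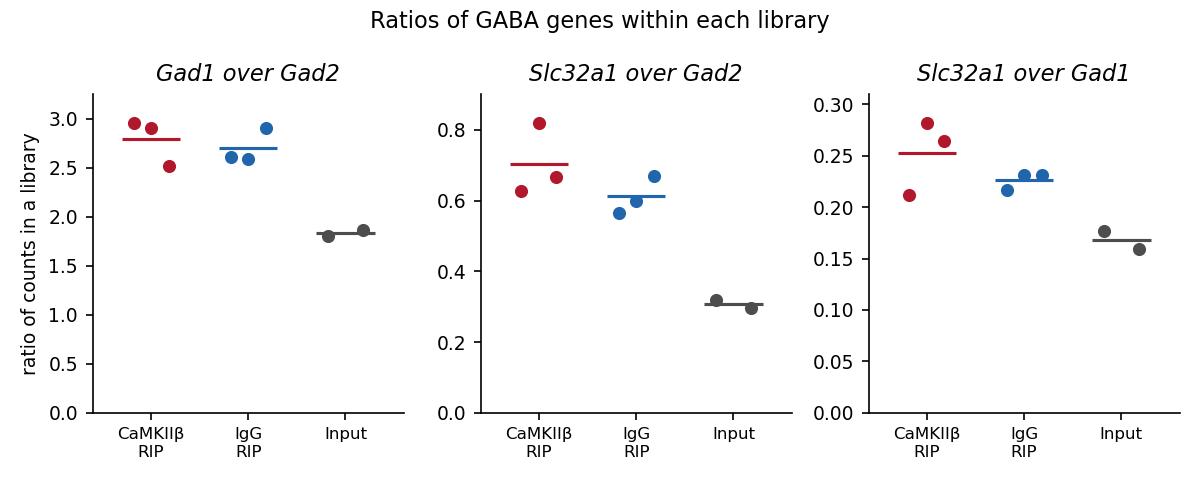
Ratio of counts within each library for Gad1 over Gad2, Slc32a1 over Gad2 and Slc32a1 over Gad1, with a point per library and a bar at the group mean. In the first panel the 6 RIP libraries lie between 2.52 and 2.96 and the Input libraries at 1.80 and 1.87.

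Reln had the largest change of the 9 genes against Input. It lies on chromosome 5 (ENSMUSG00000042453.14, 21884454 to 22344702, minus strand) and its product binds the receptors encoded by Vldlr and Lrp8, which signal through Dab1. Reln was at 1819, 1729.7 and 1407 CPM in CaMKIIβ RIP, 1604, 1651 and 1666 CPM in IgG RIP, and 596 and 564 CPM in Input. The lowest RIP library was thus still far above the higher Input library, and CaMKIIβ RIP replicate 3 was the lowest of the 6. Reln rose 2.76-fold in CaMKIIβ RIP (log2 fold change 1.46 ± 0.14, 95% interval 1.14 to 1.79, edgeR adjusted p = 0.00429) and 2.85-fold in IgG RIP (1.51 ± 0.06, 1.39 to 1.64, adjusted p = 2.98e-11). This change was above that of 98.3% of all genes tested in CaMKIIβ RIP and of 98.8% in IgG RIP. Without CaMKIIβ RIP replicate 1 the value was 1.42 with an adjusted p of 0.0709.

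Markers of cells that also make reelin did not all move the same way. Summed over the 10 cerebellar granule cell markers other than Reln, the level was 6916 to 7587 CPM in CaMKIIβ RIP, 7074 to 7418 CPM in IgG RIP, and 4528 and 4672 CPM in Input. Fat2, a cadherin gene, set that difference: it was at 3883 to 4793 CPM in CaMKIIβ RIP, 4288 to 4571 CPM in IgG RIP, and 1470.1 and 1567 CPM in Input. The other 9 summed to 2614 to 3034 CPM in CaMKIIβ RIP, 2781 to 2848 CPM in IgG RIP, and 3058 and 3104 CPM in Input. Gabra6, a granule cell gene, was lower in the immunoprecipitates. It was at 185 to 260.2 CPM in CaMKIIβ RIP and 207 to 229 CPM in IgG RIP, against 407 and 409 CPM in Input. Zic2 was higher: 227 to 291 CPM in CaMKIIβ RIP, 264 to 294 CPM in IgG RIP, and 170 CPM in each Input library. With Reln, 3 of 11 granule cell markers rose and 2 fell in CaMKIIβ RIP, beside 5.06% and 3.4% of all genes. In IgG RIP 4 of 11 rose and 3 fell, beside 20.1% and 18.7%. Reln is itself among those that rose, so these counts are not independent of its own result. The 5 Cajal-Retzius markers other than Reln summed to 245 to 279 CPM in CaMKIIβ RIP, 274 to 287 CPM in IgG RIP, and 249.9 and 252 CPM in Input. Most of that sum was Calb2, and the other 4 summed to 33.98 to 60.6 CPM in CaMKIIβ RIP, 60.9 to 64.0 CPM in IgG RIP, and 51.2 and 51.3 CPM in Input. With Reln, 1 of 6 Cajal-Retzius markers rose in CaMKIIβ RIP against Input, beside 5.06% of all genes. That 1 was Reln itself, and the other 5 did not pass. In IgG RIP 3 of 6 rose, beside 20.1% of all genes, the others being Ebf3 and Lhx5. Lhx5 was at 0 CPM in CaMKIIβ RIP replicate 2, the library with the fewest detected genes, and at 13.5 and 16.4 CPM in replicates 1 and 3. None of these markers was at 0 in all libraries, and the part of these cells in the result for Reln was not tested. Of the receptors and the adaptor of reelin, in IgG RIP against Input Lrp8 was at 0.26 ± 0.06 and Dab1 at 0.34 ± 0.07, both past the threshold, and Vldlr was at -0.12 ± 0.07, not past it. In CaMKIIβ RIP against Input Lrp8 was at 0.17 ± 0.11 and Dab1 at 0.15 ± 0.16, and neither passed. Vldlr did not pass there either, but its CaMKIIβ RIP libraries, at 168, 150 and 170 CPM, lay below all others. It was at 184 to 206 CPM in IgG RIP, and 204 and 216 CPM in Input. CaMKIIβ RIP libraries lay below both Input libraries for 26.5% of all genes, and below all IgG RIP libraries for 7.12%.

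The peptide genes differed in how far their values could be read. Cck (ENSMUSG00000032532.7, chromosome 9, 121489824 to 121495694, minus strand) encodes the precursor of cholecystokinin, made by a class of basket cells and, at lower levels, by pyramidal cells. It was at 73.5, 65.3 and 43.5 CPM in CaMKIIβ RIP, 58.1, 59.5 and 63.7 CPM in IgG RIP, and 44.4 and 43.7 CPM in Input. All IgG RIP libraries lay above Input, while CaMKIIβ RIP replicate 3 lay just below it. Cck rose 1.38-fold in IgG RIP (log2 fold change 0.47 ± 0.09, 95% interval 0.29 to 0.65, edgeR adjusted p = 3.08e-04), and in CaMKIIβ RIP it was at 0.42 ± 0.23 (-0.12 to 0.96, adjusted p = 0.363). In a fit of all 8 libraries the IgG RIP value was 0.41 with an adjusted p of 0.202.

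Sst (ENSMUSG00000004366.4, chromosome 16, 23889573 to 23890958, minus strand) encodes somatostatin, the peptide of the interneurons that contact distal dendrites. It was at 13.8, 15.2 and 14.5 CPM in CaMKIIβ RIP, 14.98, 12.3 and 16.3 CPM in IgG RIP, and 15.8 and 13.9 CPM in Input. The 3 groups overlapped throughout. The log2 fold change was -0.08 ± 0.21 in CaMKIIβ RIP (-0.58 to 0.42, edgeR adjusted p = 0.903) and -0.02 ± 0.15 in IgG RIP (-0.34 to 0.30, adjusted p = 0.943).

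Npy (ENSMUSG00000029819.6, chromosome 6, 49822710 to 49829507, plus strand) encodes neuropeptide Y, a peptide that dampens glutamate release in the hippocampus. In CaMKIIβ RIP it was at 6.21, 8.51 and 1.57 CPM, in IgG RIP at 6.25, 6.20 and 8.38 CPM, and in Input at 5.39 and 4.82 CPM. CaMKIIβ RIP replicate 3 held the lowest value of all 8 libraries and replicate 2 the highest. Replicate 3 rested on 32 counts, and its exact Poisson interval of 1.07 to 2.21 CPM (95%, counting error only) lay below that of every other library, the nearest of which began at 3.98 CPM in an Input library. Highest over lowest within CaMKIIβ RIP was 5.44-fold, while the median of 2102 genes of like level, within 0.5 on the log2 scale, was 2.05-fold and 8.8% of them had at least the spread of Npy. In IgG RIP the log2 fold change against Input was 0.46 ± 0.21 (0.01 to 0.91, edgeR adjusted p = 0.105), and in CaMKIIβ RIP it was 0.04 ± 0.65 (-1.48 to 1.57, adjusted p = 0.984), so neither passed.

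Vip (ENSMUSG00000019772.5, chromosome 10, 5639218 to 5647617, plus strand) encodes the peptide of interneurons that inhibit other interneurons. Its counts were low, 20 to 81 in a library. It was at 1.46, 3.96 and 0.978 CPM in CaMKIIβ RIP, 3.67, 2.80 and 1.88 CPM in IgG RIP, and 3.73 and 2.94 CPM in Input. CaMKIIβ RIP replicate 2 was the highest of the 8 libraries and replicate 3 the lowest. Of 2262 genes of like level, 37.5% had at least the 4.05-fold spread of Vip within CaMKIIβ RIP. The log2 fold change was -0.69 ± 0.74 in CaMKIIβ RIP (-2.41 to 1.04, edgeR adjusted p = 0.704) and -0.25 ± 0.32 in IgG RIP (-0.92 to 0.42, adjusted p = 0.582). Without CaMKIIβ RIP replicate 2 the value was -1.43 against Input (edgeR adjusted p = 0.0728) and -1.18 against IgG RIP (0.837).

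Lhx6 (ENSMUSG00000026890.19, chromosome 2, 36081953 to 36105408, minus strand), the only transcription factor of the 9, was at 4.34, 4.95 and 2.94 CPM in CaMKIIβ RIP, 2.53, 3.26 and 4.13 CPM in IgG RIP, and 2.67 and 2.98 CPM in Input. The 3 groups overlapped. Against Input the log2 fold change was 0.48 ± 0.48 in CaMKIIβ RIP (-0.65 to 1.62, edgeR adjusted p = 0.675) and 0.24 ± 0.29 in IgG RIP (-0.38 to 0.87, adjusted p = 0.563). CaMKIIβ RIP replicate 3 was the lowest of its group for Reln, Cck, Npy, Vip, Lhx6 and Gad1, but the highest for Gad2.

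**Figure D4:**
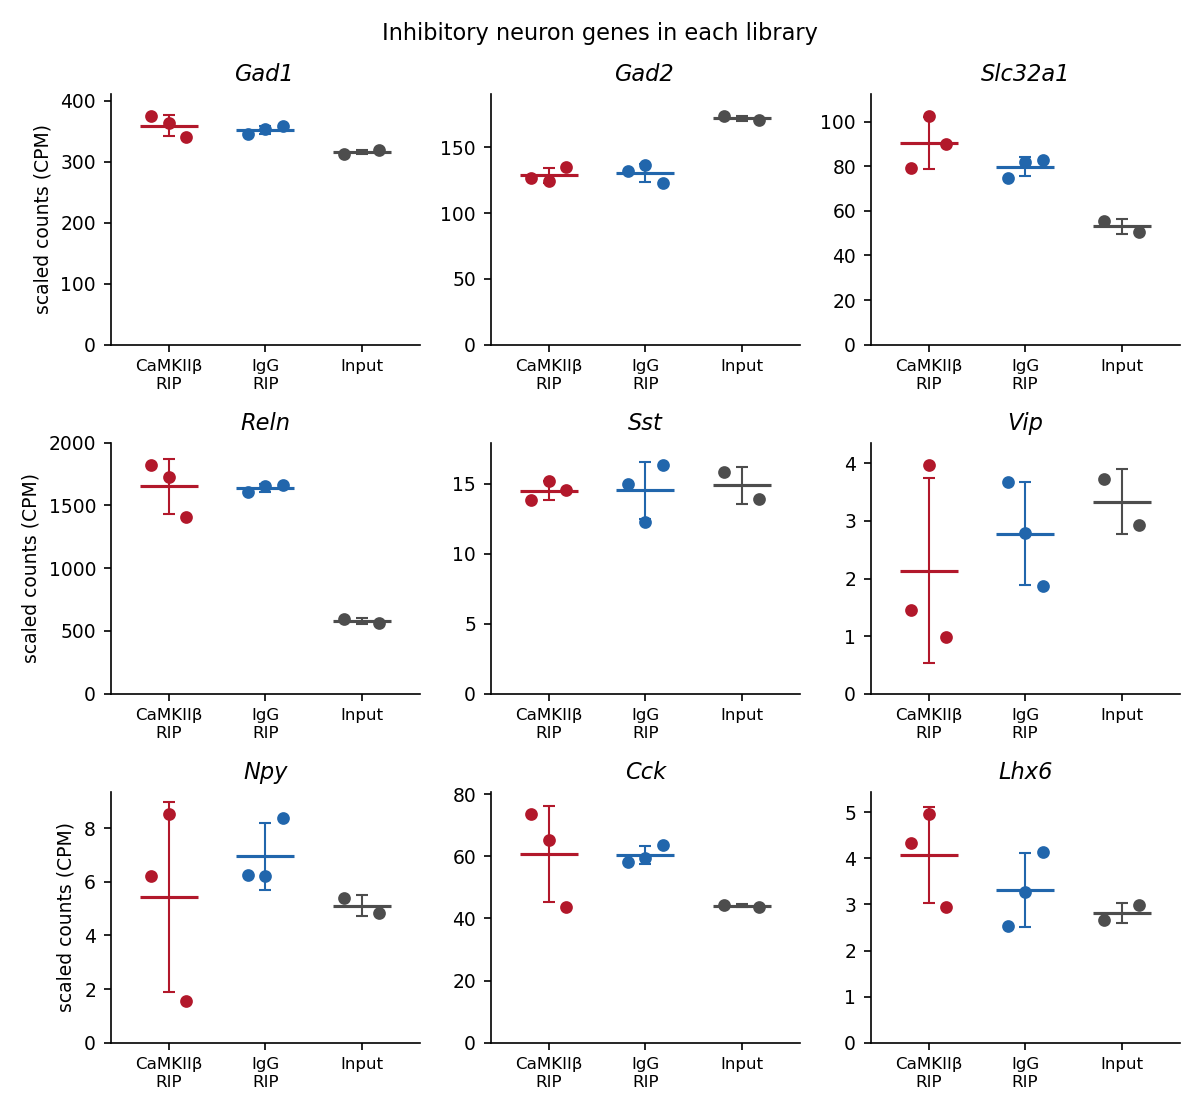
Scaled level in CPM of each of the 9 genes, with a point per library, a bar at the group mean and whiskers of 1 SD, for CaMKIIβ RIP (3 libraries), IgG RIP (3) and Input (2). The axes start at 0, Reln, Slc32a1 and Gad2 show RIP libraries apart from Input, and Npy shows CaMKIIβ RIP replicate 3 at 1.57 CPM against 6.21 and 8.51 CPM in the rest of its group.

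Exon length was a feature that the choice of genes did not use, and over all genes tested the log2 fold change against Input was lower for short genes. Summed exon length was 566 bases for Npy, 721 for Sst, 1305 for Cck, 2797 for Slc32a1, 3402 for Vip, 4805 for Lhx6, 5876 for Gad2, 7639 for Gad1 and 23738 for Reln. At the length of Npy and Sst the trend over all genes stood at -0.55 and -0.51 in CaMKIIβ RIP, and at -0.28 and -0.26 in IgG RIP. Relative to this trend Npy was at 0.60 and Sst at 0.42 in CaMKIIβ RIP, and at 0.74 and 0.24 in IgG RIP. Cck was at 0.83 in CaMKIIβ RIP and 0.68 in IgG RIP on that scale, and Slc32a1 at 0.98 and 0.72. For Reln, the longest of the 9, the trend was 0.065 in CaMKIIβ RIP and 0.18 in IgG RIP, and 1.40 and 1.33 remained. Gad2 stayed below the trend, at -0.39 and -0.41, and Gad1 near it, at 0.18 and 0.11. These values carry no test.

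**Figure D5:**
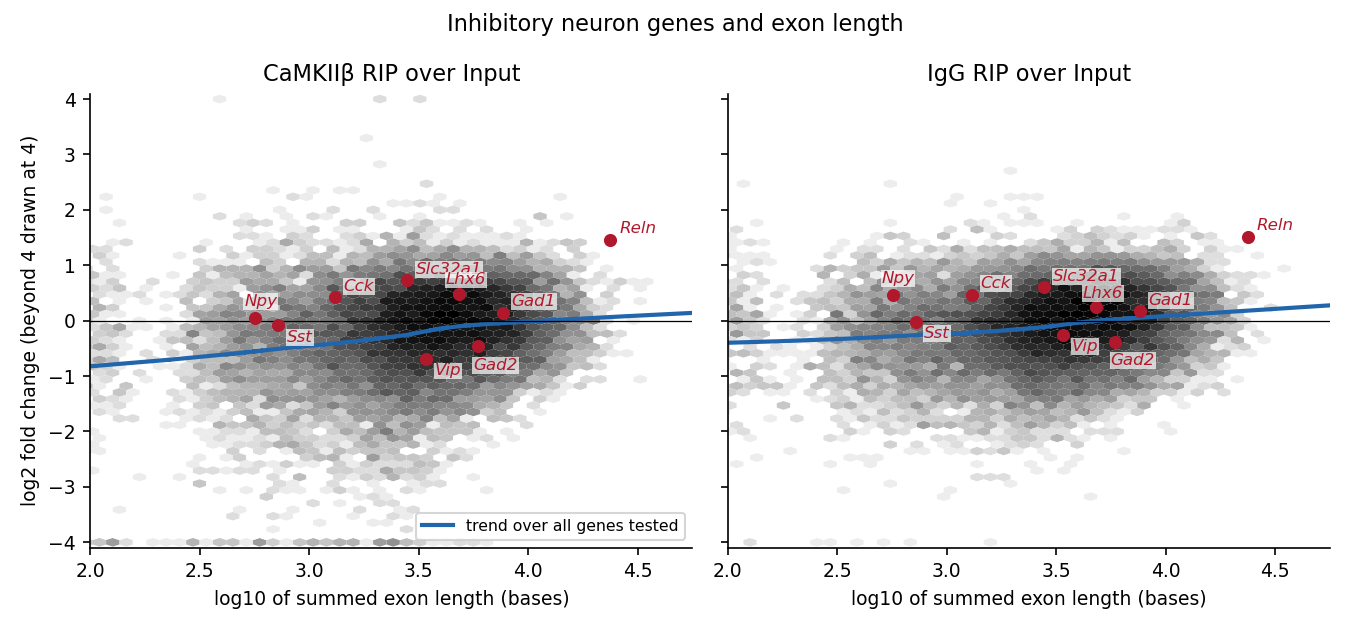
Log2 fold change against log10 of the summed exon length for all genes tested (grey, darker where more genes lie), the trend over them (line) and the 9 genes (points), for CaMKIIβ RIP over Input and IgG RIP over Input, with values beyond 4 drawn at 4. Reln lies far above the trend at 1.46 and 1.51, and Gad2 lies below it at -0.47 and -0.39.

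The start regions of the genes were read from RefSeq on GRCm38.p6, from 250 bases before to 50 bases after each RefSeq start, and all 9 genes matched. They are shown because several peptide genes are textbook targets of CREB, a factor that CaM kinases can phosphorylate. RIP measures RNA and gives no value at a promoter. The core TGACG of its site, searched on both strands, was in the windows of Sst, Vip, Cck and Gad2, and not in those of Gad1, Slc32a1, Reln, Npy and Lhx6 (3 windows). Of 32851 such windows of all genes, 20.8% hold it. The full site TGACGTCA, which holds the core on both strands, was in the window of Sst alone among the 9, and 1.79% of all windows hold it. The stretches around the matches are given 5′ to 3′ along the gene, with the core, or for Sst the full site, in capitals (as CGTCA where it lies on the other strand).
Sst, chr16:23890859-23890918, minus strand: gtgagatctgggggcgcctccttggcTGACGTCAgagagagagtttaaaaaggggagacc
Vip, chr10:5639113-5639169, plus strand: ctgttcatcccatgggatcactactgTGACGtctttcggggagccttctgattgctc
Cck, chr9:121495711-121495767, minus strand: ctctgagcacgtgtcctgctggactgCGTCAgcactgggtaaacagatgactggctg
Gad2, chr2:22622268-22622324, plus strand: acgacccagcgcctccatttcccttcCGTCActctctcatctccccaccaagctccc
The match began 48 bases before the RefSeq start in Sst, 79 in Vip, 47 in Cck and 33 in Gad2. In Sst and Gad2 the span of the counted gene begins further upstream than the RefSeq start, so these stretches lie inside that span. The 4 genes with a match did not share a direction against Input: Gad2 fell in both immunoprecipitates, Cck rose in IgG RIP, and Sst and Vip did not pass.

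Other genes of inhibitory transmission were read from 6 lists with 91 genes, of which 87 were found by name. Between the antibodies 0 of 79 tested passed with edgeR, beside 0% of all genes, and DESeq2 and limma-voom called 0. At an unadjusted p under 0.05, 3 of the 79 were higher and 1 lower, a share near the 3.51% of all genes. In CaMKIIβ RIP against Input 11 rose and 3 fell of 80 tested, 17.5% beside 8.45% of all genes, and in IgG RIP against Input 30 rose and 10 fell of 79, 50.6% beside 38.7% of all genes. With library size scaling the split was 9 higher and 7 lower in CaMKIIβ RIP, beside 683 higher and 1361 lower of all genes. In IgG RIP it was 18 higher and 19 lower, beside 2714 higher and 6345 lower of all genes. Without CaMKIIβ RIP replicate 1 the CaMKIIβ RIP count was 0, without CaMKIIβ RIP replicate 2 it was 23, and without an Input library it was 7 or 4. Their median log2 fold change was 0.24 and 0.23, beside -0.12 and -0.02 over all genes.

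Slc6a11, a GABA transporter gene of astrocytes, rose in both immunoprecipitates against Input. Of 8 genes of GABA metabolism and uptake, 3 rose and 1 fell in CaMKIIβ RIP (8.45% of all genes passed) and 6 rose and 1 fell in IgG RIP (38.7%). Slc6a11 was at 0.80 ± 0.12 in CaMKIIβ RIP and 0.74 ± 0.07 in IgG RIP. Abat, which degrades GABA, rose in IgG RIP (0.61 ± 0.07) and was at 0.41 ± 0.15 in CaMKIIβ RIP, not past the threshold, and Aldh5a1, the next enzyme of that path, passed in neither (-0.05 ± 0.15 and 0.13 ± 0.09). Of 5 astrocyte markers tested, 4 rose in CaMKIIβ RIP and 5 in IgG RIP, beside 5.06% and 20.1% of all genes. They summed to 7871 to 9320.3 CPM in CaMKIIβ RIP, 8715 to 10004 CPM in IgG RIP, and 3883 and 3966 CPM in Input. Most of that sum was Slc1a2. The other 4 summed to 2073 to 2346 CPM in CaMKIIβ RIP, 2237 to 2386 CPM in IgG RIP, and 1427 and 1487 CPM in Input. A higher sum was not particular to astrocytes. Markers of endothelium and mural cells summed to 185 to 202 CPM in CaMKIIβ RIP, against 105 and 108 CPM in Input. Those of choroid plexus were lower in IgG RIP, at 498 to 531 CPM against 687 and 748 CPM. The part of astrocytes in the uptake genes was not tested.

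Other genes of interneuron classes moved in both directions. Of 24 tested in CaMKIIβ RIP against Input 2 rose and 2 fell, where 8.45% of all genes passed, and of 23 in IgG RIP against Input 5 rose and 4 fell, a share close to the 38.7% of all genes. Nos1, the neuronal nitric oxide synthase, was at 0.90 ± 0.14 in CaMKIIβ RIP and 1.17 ± 0.08 in IgG RIP. Calb1, the calcium buffer calbindin, which Purkinje cells also use, fell by 0.68 and 0.70 on the log2 scale, and Pvalb, the buffer parvalbumin, fell by 0.53 in CaMKIIβ RIP, a value of -0.08 once the trend on exon length was taken off. The potassium channel Kcnc1 rose in CaMKIIβ RIP (0.46 ± 0.09). Calb2, encoding calretinin, was at 0.07 ± 0.10 there and did not pass. Car8, another Purkinje cell gene, was at 480 to 568 CPM in CaMKIIβ RIP and 494 to 560.3 CPM in IgG RIP, against 739 and 773 CPM in Input, and the part of Purkinje cells was not tested.

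Of the transcription factors of interneurons, 0 of 12 passed in CaMKIIβ RIP against Input, where 8.45% of all genes did, with 2 higher and 0 lower at an unadjusted p under 0.05, beside 22.6% of all genes. In IgG RIP 3 of 12 passed, all higher, a share below the 38.7% of all genes. Sox6, a partner of Lhx6 in the same lineage, was at 0.88 ± 0.11 in IgG RIP. No test of a difference between these 2 comparisons stands behind that contrast, and between the antibodies Sox6 was at -0.13 ± 0.16. Receptors of the peptides and the reelin pathway gave 0 of 12 in CaMKIIβ RIP (8.45% of all genes), with 0 higher and 1 lower at an unadjusted p under 0.05 (22.6%), and in IgG RIP 3 rose and 1 fell of 12 (38.7%). The somatostatin receptor Sstr4 rose (0.92 ± 0.15) and the neuropeptide Y receptor Npy2r fell (by 0.73 on the log2 scale) in IgG RIP.

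Genes that process peptide precursors gave 2 higher and 0 lower of 14 in CaMKIIβ RIP, beside 8.45% of all genes, and 6 higher and 3 lower in IgG RIP, beside 38.7%. Pcsk1n, which encodes the inhibitor proSAAS of a prohormone convertase, rose by the most in this list, at 1.28 ± 0.23 in CaMKIIβ RIP and 1.09 ± 0.10 in IgG RIP. The convertase gene Pcsk1 itself fell by 0.67 on the log2 scale in IgG RIP. Secretogranin Scg2 (-0.03 ± 0.08) and chromogranin Chgb (-0.04 ± 0.08) did not pass there. Of 10 genes of the inhibitory postsynapse, 4 rose and 0 fell in CaMKIIβ RIP, beside 8.45% of all genes, and 7 rose and 1 fell in IgG RIP, beside 38.7%. Iqsec3 was at 0.99 ± 0.14 and 1.05 ± 0.07, and the adhesion protein Nlgn2 at 0.66 ± 0.10 and 0.81 ± 0.07. The scaffold gephyrin, encoded by Gphn, was at -0.02 ± 0.14 and 0.02 ± 0.07 and passed in neither.

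The genes nearest to the GABA genes in pattern were not members of these lists. Nearness was the root mean square difference of the centred log2 CPM over the 8 libraries, among 12456 other protein-coding genes whose average log2 CPM was 1 or more. For Gad1 the nearest were Rbck1, Garnl3 and Lpin2, at 0.0321 to 0.0372, where the median gene lay at 0.274. Those of Gad2 were Vezt, Usp15 and Ttll7, at 0.0299 to 0.0385 (median 0.344), and those of Slc32a1 were Bcan, Tmem132c and Klf13, at 0.0383 to 0.0504 (median 0.383).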

How the data were processed

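The values were the raw counts that the authors deposited, with a summed exon length for each gene. The submitters' processing notes name featureCounts 2.0.1 and the aligner STAR 2.7.3a, the trimmers cutadapt 2.10 and Trim Galore 0.6.4, and the build GRCm38.p6. The sources used here do not give strandedness, annotation release, or how duplicates and reads with several positions were treated. The members and lists were chosen with earlier results of these data known. Symbols came from RefSeq genes on GRCm38.p6 that shared at least 0.5 of the joint span with a table gene, each the other's best partner (34132 of 55401 genes, 96.1% of counts). Each comparison had a fit of its own, with only its libraries, in edgeR 4.0.16 under R 4.3.3 (quasi-likelihood, robust, TMM, filterByExpr), with Benjamini-Hochberg adjustment over all genes tested. CPM values use TMM over all 8 libraries, and TPM use the deposited lengths. The length trend was a loess with a span of 0.5. Alternatives were other scalings, no filter, DESeq2 1.42.0, limma-voom (limma 3.58.1), all 8 libraries, the replicate block, a 2-fold minimum and each library left out. Named genes of the lists were up to 4 past the threshold with the largest change per list and comparison. Up to 2 with the smallest change were added, and some of these genes are described. Gabra6, Car8, Prox1, Fat2, Zic2, Ebf3 and Lhx5 are markers chosen after their values were seen. The fit was tested on simulated counts. Some genes of the lists are counted but not reported here by name.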

Additional observations from a re-analysis of the deposited data

How the results depend on the processing

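In CaMKIIβ RIP against IgG RIP, 0 inhibitory neuron genes, 0 other inhibitory genes and 0 genes in all passed under every alternative run. The sign of values near 0 turned there: Sst to -0.0113 with upper quartile scaling, -0.0030 without a count filter, -0.0044 with limma-voom and -0.0092 in the fit of all 8 libraries, and Cck to -0.0178 with limma-voom and -0.0172 with the replicate block. Leaving out 1 library gave -0.0617 to 0.0136 for Gad2, -0.0621 to 0.12 for Reln, -0.11 to 0.0902 for Sst, -0.82 to 0.0871 for Npy, -0.15 to 0.21 for Cck, -1.18 to -0.04 for Vip and 0.14 to 0.49 for Lhx6.

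In CaMKIIβ RIP against Input, the 3 members past the threshold were 1 at a fold change of at least 2, and 0 to 3 with a library left out. The other inhibitory genes, 14, were 27 with DESeq2, 25 in the fit of all 8 libraries, 27 with the replicate block, 1 at 2-fold, and 0 to 23 with a library left out. All genes, 1868, were 2866 without a filter, 3448 with DESeq2, 3833 in the fit of all libraries, 4205 with the replicate block, 664 at 2-fold, and 0 to 4089 with a library left out. A lone Input library was assumed to vary like the RIP libraries. With library size scaling the split was 683 higher and 1361 lower, against 1117 and 751. Gad1 turned to -0.0264 and Npy to -0.11 with library size scaling, and Npy to -0.29 with limma-voom and to between -0.37 and 0.49 with a library left out. Cck passed with the replicate block (0.61, edgeR adjusted p = 0.0109).

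In IgG RIP against Input, the 5 members were 3 in the fit of all 8 libraries, 1 at 2-fold, and 4 to 5 with a library left out. The other genes, 40, were 22 in that fit, 6 at 2-fold, and 32 to 43. All genes, 8653, were 3676, 2071, and 5659 to 9017. With library size scaling the split was 2714 higher and 6345 lower, against 4483 and 4170. Gad1 turned to -0.0588 with library size scaling, and Sst lay from -0.11 to 0.10 with a library left out. The cause of these shifts was not tested.

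The highest over the lowest level per length in CaMKIIβ RIP was 189 without replicate 2, against 115. Deviations of same-numbered libraries correlated across genes at -0.0861 to 0.0047 between the antibodies, and at 0.00615 to 0.134 with Input. With 2 Input libraries each value with Input has a mirror of opposite sign, such as -0.134. These correlations therefore cannot decide whether equal numbers share animals. The labels do not say so either, and the replicate block is given here only. For Vip, at 20 to 81 counts a library, the counting interval of CaMKIIβ RIP replicate 2 (3.08 to 5.03 CPM) lay above those of replicates 1 and 3 (1.02 to 2.03 and 0.598 to 1.51 CPM), so the spread there exceeded counting error.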
